A study of Mus musculus with 12 samples.

Results

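The genes described here encode chaperones and protein folding enzymes, taken by symbol: the Hsp families, the J-domain proteins Dnaja, Dnajb and Dnajc, the TRiC subunits Tcp1 and Cct2 to Cct8, the disulfide isomerases named Pdia, and Hyou1, Calr, Canx and P4hb. The table of 12955 genes held 85 of them, of which 80 reached 1 FPKM (fragments per kilobase of transcript, scaled to the size of the library) in at least 2 libraries and were tested. Mouse primordial germ cell-like cells (PGCLCs) were studied, a culture model of the founder cells of the germline, made from J1 male embryonic stem cells and sorted from embryoid bodies by CD61 and SSEA1. Poly(A)-enriched RNA was sequenced in 12 libraries, 2 in each of 6 groups: OE cells at day 6, EV cells at day 6, OE cells at day 2, cells with dTAG13 at day 2, cells with DMSO at day 2, and EV cells at day 2. The series concerns Tex10, and its labels do not spell out OE and EV; Tex10 transcript was higher in OE than in EV cells (values below). dTAG13 is a degrader that removes proteins fused to a matching tag, here set against its solvent DMSO, and the labels do not say which protein is tagged. All groups share the J1 background, and the labels give no separate cultures or clones, so p-values measure the spread between these libraries, which may be technical.

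Chaperones bind unfolded proteins and help them reach their folded form, mostly in cycles driven by ATP. In the cytosol, Hsp70 proteins work with J-domain partners that bring them clients and start ATP hydrolysis, Hsp90 acts on nearly folded clients, small heat shock proteins hold unfolded ones, and the ring-shaped chaperonin TRiC encloses actin, tubulin and others. The endoplasmic reticulum has its own Hsp70 (Hspa5, also called BiP), its own Hsp90 (Hsp90b1), lectin chaperones that read glycans (Calr, Canx) and isomerases that form disulfide bonds. Mitochondria fold imported proteins with Hspa9 and with the chaperonin of Hspd1 and Hspe1. Heat shock factors and the unfolded protein response, which acts through Xbp1, Atf6 and Atf4, are the best known switches of these genes.

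Tex10 transcript was 403 and 378 FPKM in day 2 OE cells and 119 and 145 FPKM in day 2 EV cells (log2 change 1.57 ± 0.15 (SE), adjusted p = 0.0028). At day 6 it was 259 and 269 FPKM in OE cells and 65.7 and 81.5 FPKM in EV cells (log2 change 1.84 ± 0.15 (SE), adjusted p = 0.000862). With dTAG13 it was 45.2 and 36.5 FPKM, against 61.7 and 56.8 FPKM with DMSO (log2 change -0.53 ± 0.15 (SE), adjusted p = 0.0425; -0.68 without the first dTAG13 library), and the DMSO cells were themselves below day 2 EV cells (log2 change -1.13 ± 0.15 (SE), adjusted p = 0.0104). A degrader acts on protein, so the transcript does not check its effect. Of 12 PGCLC markers 11 were in the table, with summed FPKM of 1050.1 to 1604 per library, Pou5f1 at 610.2 to 1156 and Nanos3 at 2.84 to 56.9; Itgb3, which encodes CD61, was at 0 to 4.39. Markers of endoderm (2 of 6 in the table), mesoderm (4 of 6), neural ectoderm (3 of 6) and fibroblasts (1 of 6) summed to at most 6.39, 12.5, 18.9 and 0.834 FPKM. The first dTAG13 library stands apart: it lists 2008 genes and 12 members at exactly 0, against 18 to 127 genes and 0 or 1 member in the others. An exact 0 can be a failed estimate, so the dTAG13 changes are also given without that library.

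Promoter pieces are shown because the results divide the endoplasmic reticulum genes, and one short motif is shared by several of them. RefSeq promoters (GRCm38.p6, 250 bases before to 50 after each start site) were matched for 72 of the 85 members. The endoplasmic reticulum stress element, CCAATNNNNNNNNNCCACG, read on both strands, was present in 6 members (8.33% of 72), against 37 of 27025 symbols (0.137%). All 6 encode endoplasmic reticulum proteins: Hspa5, Hsp90b1 (with 2 copies), Calr, Canx, Dnajc3 and Pdia6. The heat shock element, alternating units GAA, TTC and GAA with NN between neighbours, or its reverse complement TTC, GAA and TTC, was present in 4 members (5.56%), against 179 symbols (0.662%): Dnajb6, Hsph1, and the divergent pair Hspd1 and Hspe1, which share one stretch of DNA. A second form of the stress element, ATTGG, N and CCACG in turn, was present in 1 member (Dnajb11; 1.39%), against 12 symbols (0.0444%). A match describes these letters and is not evidence of binding. Each line reads 5′ to 3′ on the strand of the gene, with the matched letters in capitals; the last line holds 2 overlapping heat shock elements.
Hspa5, chr2:34772020-34772048, plus strand: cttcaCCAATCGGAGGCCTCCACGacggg
Hsp90b1, chr10:86705613-86705681, minus strand: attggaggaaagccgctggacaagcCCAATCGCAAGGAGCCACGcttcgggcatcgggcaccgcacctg
Hsp90b1, chr10:86705528-86705556, minus strand: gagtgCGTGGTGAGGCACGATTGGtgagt
Calr, chr8:84847050-84847118, minus strand: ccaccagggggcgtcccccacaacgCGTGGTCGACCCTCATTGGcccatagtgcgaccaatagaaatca
Canx, chr11:50325775-50325843, minus strand: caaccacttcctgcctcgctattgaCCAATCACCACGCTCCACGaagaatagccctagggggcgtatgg
Dnajc3, chr14:118937802-118937870, plus strand: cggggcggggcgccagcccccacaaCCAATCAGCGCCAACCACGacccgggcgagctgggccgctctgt
Pdia6, chr12:17266466-17266534, plus strand: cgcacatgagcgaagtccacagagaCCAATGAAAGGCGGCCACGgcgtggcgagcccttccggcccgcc
Hspe1, chr1:55088053-55088082, plus strand: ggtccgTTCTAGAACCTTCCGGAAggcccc

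Folding genes supplied 1.75% to 2.2% of all FPKM in each library. FPKM is per length, so levels of different genes can be set side by side. The highest mean over the 12 libraries belonged to the TRiC subunit Cct5 (1001 FPKM), followed by the small heat shock protein Hspb1 (840.3 FPKM), the mitochondrial co-chaperonin Hspe1 (802 FPKM), Hspa5 (670.5 FPKM) and Cct3 (525 FPKM). All 22 endoplasmic reticulum and all 8 mitochondrial members passed the level filter, as did 44 of 48 in the cytosol or nucleus and 6 of 7 of other or uncertain place. The 5 below it were Cct6b, Cct8l1, Dnajb7, Hspa1l and Hspb7, the highest of which, Cct6b, reached 2.09 FPKM in 1 library. Just inside the filter lay Dnajc5g, with 2 libraries at 1 FPKM or more and a highest value of 2.00 FPKM. Hspa8 and Hsp90ab1, the constitutive cytosolic Hsp70 and Hsp90, were not analysed here. The stress-inducible Hsp70 genes were scarce: Hspa1a ranged from 0.496 to 5.62 FPKM and Hspa1b from 1.11 to 12.1 FPKM. These near-identical copies may share reads, so their values are uncertain.

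Summed by place, endoplasmic reticulum members were lowest with dTAG13, at 1942 and 1536 FPKM, against 2655 and 2679.8 FPKM with DMSO. The other 10 libraries ran from 2655 to 3356 FPKM, so both dTAG13 libraries lay below all of them. Mitochondrial members summed to 1785 and 1679.9 FPKM in day 6 OE cells, against 2744 and 2542 FPKM in day 2 OE cells. In EV cells the mitochondrial sums were 1557 and 1737 FPKM at day 6 and 2418 and 2562 FPKM at day 2. The cytosolic and nuclear members followed the mitochondrial ones: 6092 and 5798 FPKM in day 6 OE cells against 8341 and 7698 FPKM in day 2 OE cells, and 5563 and 6102 FPKM in day 6 EV cells against 7506 and 7653 FPKM in day 2 EV cells. The groups of each of these 5 pairs did not overlap. Summed over all genes, FPKM was also lower at day 6, at 588659 and 563492 in OE cells and 550230 and 558176 in EV cells. At day 2 these totals were 673435 and 613789 in OE cells and 604959 and 606562 in EV cells. With dTAG13 they were 633830 and 587641, and with DMSO 625031 and 584881. The part of the totals in the gaps between days was not tested. A sum follows its few highest genes, and no test was run on it; in bulk RNA, fewer cells of a type and less RNA per cell cannot be told apart.

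**Figure D1:**
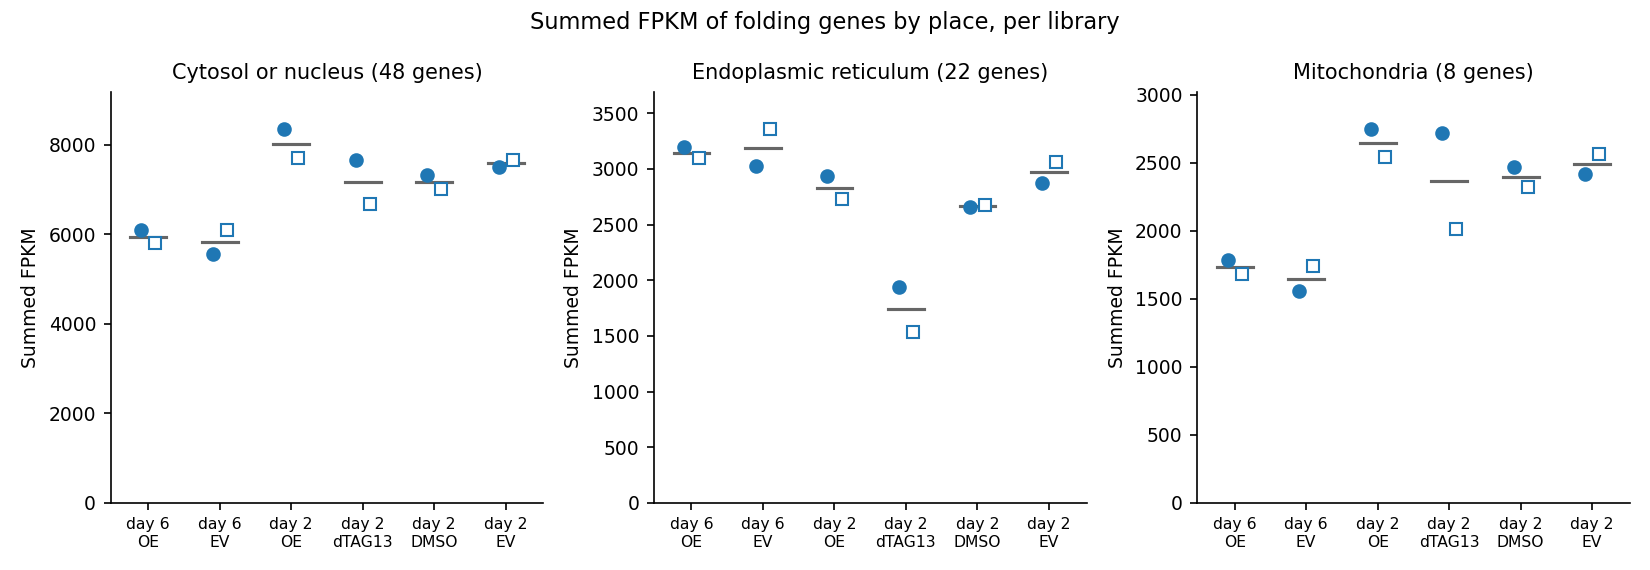
Summed FPKM (vertical axes, from 0) of the 48 cytosolic or nuclear, 22 endoplasmic reticulum and 8 mitochondrial members in each library; filled circles are replicate 1, open squares replicate 2 and bars the mean of 2 libraries. The 2 dTAG13 libraries have the lowest endoplasmic reticulum sums (1942 and 1536), and the 4 day 6 libraries the lowest cytosolic and mitochondrial sums.

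The first comparison asks what dTAG13 does to these genes at day 2. On the log2(FPKM + 1) scale, limma with Benjamini-Hochberg adjustment over 12059 genes called 14 members, 13 lower and 1 higher with dTAG13. Over all genes 12.2% were called, 8.21% lower and 4.01% higher. Of the members 17.5% were called, nearly all of them lower, and whether they differ from all genes was not tested. The endoplasmic reticulum members differed from the other places in their counts: 8 of 22 fell and none rose, with a median log2 change of -0.40, against 4 lower and 1 higher of 44 and a median of -0.07 in the cytosol or nucleus, none of 8 and a median of 0.15 in mitochondria, and -0.13 over all genes tested. Whether the places differ was not tested.

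Both main chaperones of the endoplasmic reticulum fell. Hspa5 was 489.6 and 336 FPKM with dTAG13 and 725 and 791 FPKM with DMSO (log2 change -0.90 ± 0.17 (SE), adjusted p = 0.0105). Hsp90b1 was 239.7 and 174 FPKM with dTAG13 and 358 and 359 FPKM with DMSO (log2 change -0.81 ± 0.16 (SE), adjusted p = 0.0128). In each case both dTAG13 libraries lay well below both DMSO libraries. Hyou1, a large Hsp70 relative that acts as a nucleotide exchange factor for Hspa5, was 18.4 and 27 FPKM with dTAG13 and 48.3 and 41.1 FPKM with DMSO (log2 change -0.96 ± 0.17 (SE), adjusted p = 0.00827). Dnajc3, a J-domain partner of Hspa5 that also inhibits the kinase Eif2ak3, was 6.79 and 4.56 FPKM with dTAG13 and 10.1 and 9.35 FPKM with DMSO (log2 change -0.70 ± 0.19 (SE), adjusted p = 0.0422). Of the other J-domain partners, Dnajb9 did not pass (log2 change -0.39 ± 0.22 (SE), adjusted p = 0.257; -0.57 without the first dTAG13 library). Dnajb11 was 96 and 50.8 FPKM with dTAG13 and 73.4 and 69.6 FPKM with DMSO and did not pass (log2 change -0.03 ± 0.23 (SE), adjusted p = 0.939). Its first dTAG13 library lies above and its second below both DMSO libraries, and without the first its change was -0.48 and passed.

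Among the disulfide isomerases, Pdia4 fell with the smallest standard error of the group. It was 64.9 and 76.9 FPKM with dTAG13 and 153 and 145 FPKM with DMSO (log2 change -1.06 ± 0.10 (SE), adjusted p = 0.000495). Pdia6, which attenuates the unfolded protein response sensor Ern1, was 195 and 152 FPKM with dTAG13 and 271 and 291 FPKM with DMSO (log2 change -0.70 ± 0.13 (SE), adjusted p = 0.00917). Pdia3, the isomerase that works with the lectin chaperones, was 182 and 158 FPKM with dTAG13 and 251 and 271 FPKM with DMSO (log2 change -0.62 ± 0.16 (SE), adjusted p = 0.038). These 3 fell in both libraries, while P4hb, the most general isomerase, did not pass: it was 241 and 173 FPKM with dTAG13 and 221 and 211 FPKM with DMSO (log2 change -0.08 ± 0.15 (SE), adjusted p = 0.745; -0.32 without the first dTAG13 library). Its dTAG13 libraries lie on either side of the DMSO pair. Of the lectin chaperones, the soluble Calr was 131 and 168 FPKM with dTAG13 and 261 and 250.2 FPKM with DMSO (log2 change -0.78 ± 0.13 (SE), adjusted p = 0.00582). Its membrane-bound relative Canx was 136 and 127 FPKM with dTAG13 and 172 and 142 FPKM with DMSO and did not pass (log2 change -0.24 ± 0.15 (SE), adjusted p = 0.293; -0.29 without the first dTAG13 library).

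**Figure D2:**
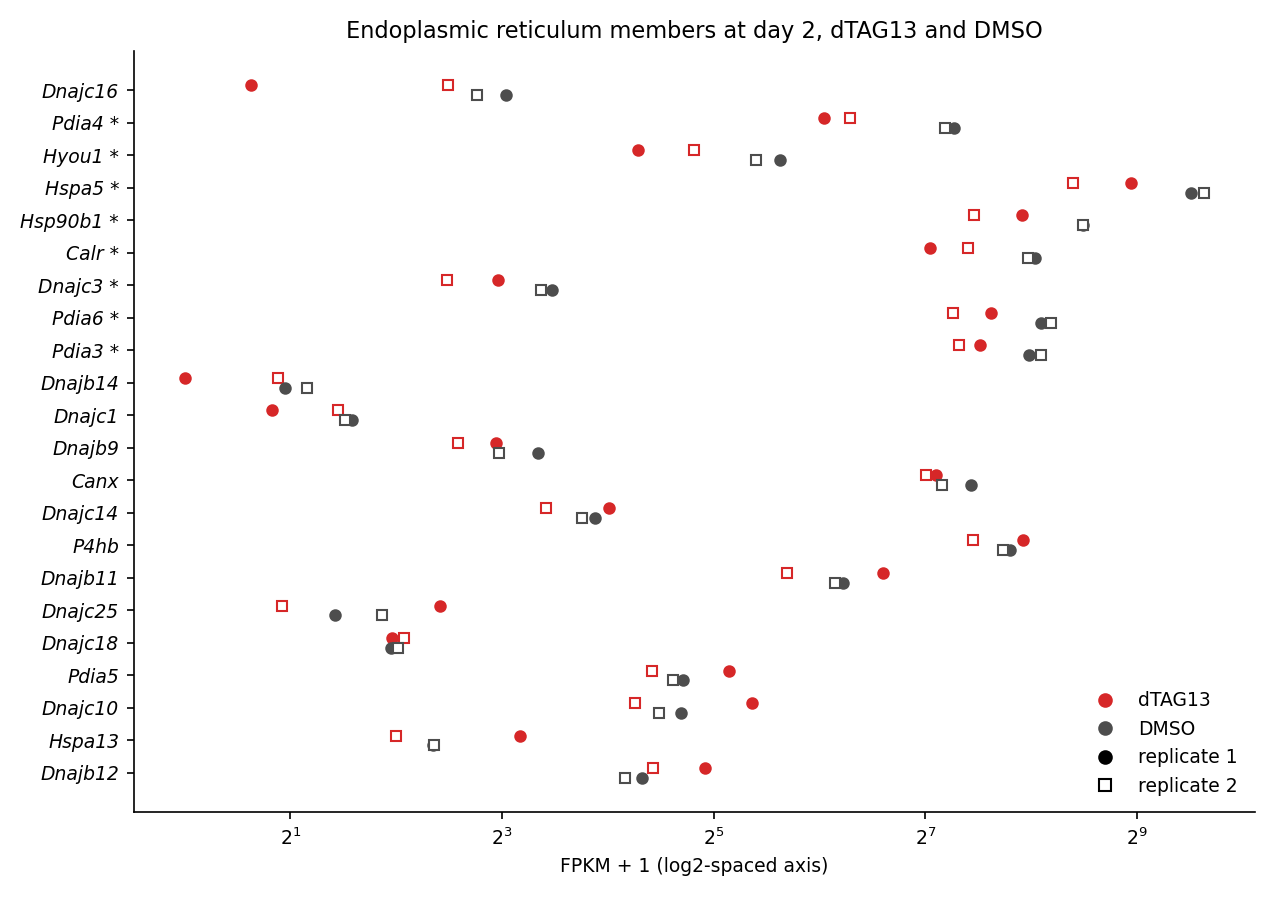
FPKM + 1 (log2-spaced axis) of the 22 endoplasmic reticulum members in the dTAG13 (red, upper) and DMSO (grey, lower) libraries at day 2; circles are replicate 1, squares replicate 2, and asterisks mark the 8 members with an adjusted p below 0.05. Pdia4, Hyou1, Hspa5, Hsp90b1, Calr, Dnajc3, Pdia6 and Pdia3 have both dTAG13 libraries below both DMSO libraries, while Pdia5, Dnajc10 and Hspa13 have one dTAG13 library on each side.

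Set against the promoter pieces above, 5 of the 6 members with the endoplasmic reticulum stress element fell with dTAG13, all but Canx, with a median log2 change of -0.74. Of the 13 endoplasmic reticulum members whose promoter lacked it, 2 fell (Pdia3 and Pdia4), with a median of -0.11. These 13 lack only the first form of the element, and Dnajb11, which holds the second form, is among them. Of the 3 with no promoter matched, Hyou1 fell. Without the first dTAG13 library the same 5 of 6 fell, with a median of -0.91, and 4 of 13 (Pdia3, Pdia4, Dnajb11 and Dnajc25), with a median of -0.40. Whether the element has a part in the changes was not tested.

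Outside the endoplasmic reticulum, Hsph1, a cytosolic nucleotide exchange factor for Hsp70, was 45.3 and 45.2 FPKM with dTAG13 and 86 and 91.6 FPKM with DMSO (log2 change -0.96 ± 0.13 (SE), adjusted p = 0.00305). Hspa4, of the same family, was 91.8 and 76.9 FPKM with dTAG13 and 117 and 116 FPKM with DMSO (log2 change -0.47 ± 0.11 (SE), adjusted p = 0.0289). Both dTAG13 libraries lie below both DMSO libraries for each. Hspbp1, another exchange factor for Hsp70, was 83.4 and 114 FPKM with dTAG13 and 107 and 103 FPKM with DMSO and did not pass (log2 change -0.11 ± 0.15 (SE), adjusted p = 0.66; 0.12 without the first dTAG13 library). Dnajc5, a J-domain protein of secretory vesicles, was 5.62 and 11.2 FPKM with dTAG13 and 17 and 15.5 FPKM with DMSO (log2 change -0.93 ± 0.24 (SE), adjusted p = 0.0352). Dnajc6 (auxilin, which uncoats clathrin vesicles) and Dnajc22 also passed, with log2 changes of -1.14 and -1.58, but both are listed at 0 in the first dTAG13 library. In the second, Dnajc6 was 1.03 FPKM, against 2.56 and 1.77 FPKM with DMSO, and Dnajc22 was 2.10 FPKM, against 4.74 and 3.82 FPKM with DMSO. The one member called higher was Hspb8, a small heat shock protein of selective autophagy, at 31.5 and 19.5 FPKM with dTAG13 and 15.9 and 11.9 FPKM with DMSO (log2 change 0.81 ± 0.22 (SE), adjusted p = 0.044).

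No TRiC subunit and no mitochondrial member was called, though Tcp1 and Hspd1 were lower without the first dTAG13 library (-0.46 and -0.61). The cytosolic Hsp90aa1 was 731 and 476 FPKM with dTAG13 and 526 and 492 FPKM with DMSO (log2 change 0.21 ± 0.18 (SE), adjusted p = 0.429; -0.09 without the first dTAG13 library), with one dTAG13 library above and the other below both DMSO libraries. Hspd1 was 578 and 405 FPKM with dTAG13 and 634 and 604 FPKM with DMSO (log2 change -0.36 ± 0.16 (SE), adjusted p = 0.172). Both Hspd1 libraries with dTAG13 lie below the DMSO pair, but they differ from each other by far more than that pair does. The small heat shock protein Hspb2 was 0 and 12.8 FPKM with dTAG13 and 6.15 and 3.76 FPKM with DMSO, so one dTAG13 library lies below and the other above both DMSO libraries.

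**Figure D3:**
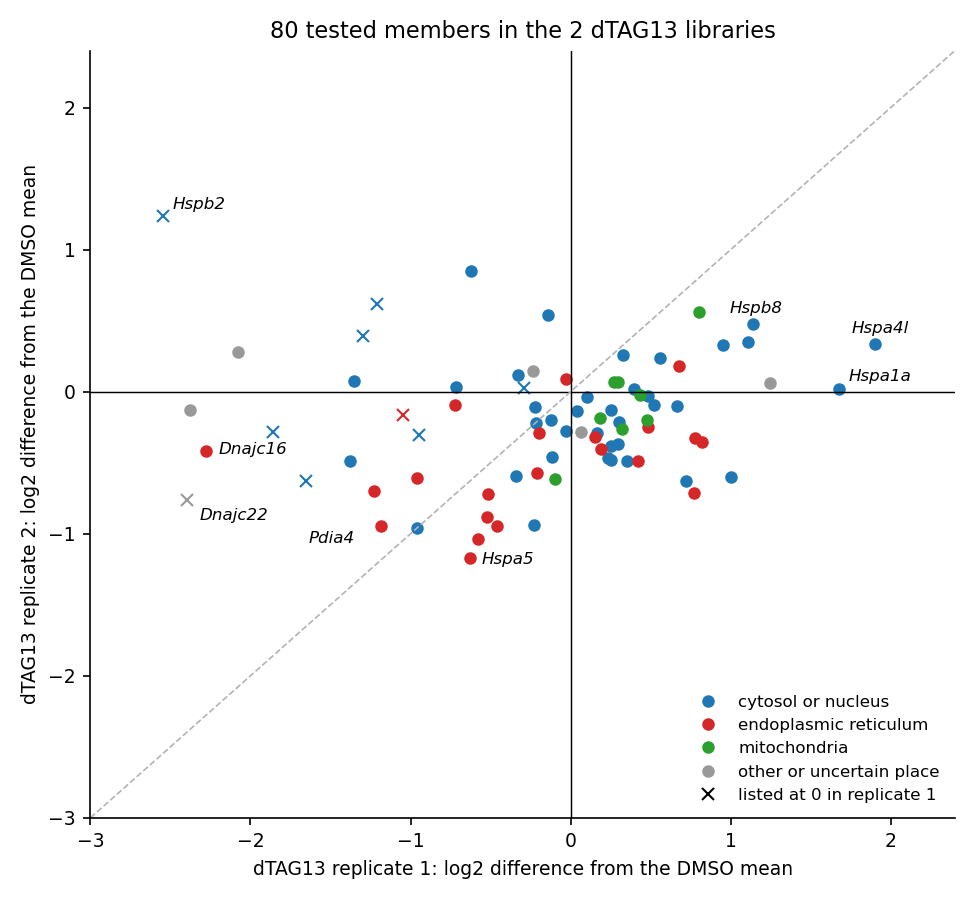
Each of the 80 tested members by its log2(FPKM + 1) difference from the DMSO mean in dTAG13 replicate 1 (horizontal) and replicate 2 (vertical); colours give the place, crosses mark members listed at 0 in replicate 1, and the dashed line is equality. Pdia4 and Hsph1 lie below 0 at about the same distance in both libraries, whereas Hspb2 lies far below 0 in replicate 1 and above 0 in replicate 2, and Hspa4l lies far above 0 in replicate 1 and nearer to 0 in replicate 2.

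Without the first dTAG13 library the same test called 27 members, 24 lower and 3 higher (all genes, 23.3% called, 17.0% lower and 6.25% higher), and 13 of the 14 calls held. The median over the endoplasmic reticulum members was then -0.45. It was -0.12 in the cytosol or nucleus, -0.10 in mitochondria, where it had been above 0, and -0.17 over all genes. In the endoplasmic reticulum the changes were -1.17 for Hspa5, -1.04 for Hsp90b1, -0.95 for Dnajc3, -0.94 for Pdia4, -0.88 for Pdia6, -0.72 for Pdia3, -0.61 for Calr and -0.70 for Hyou1. In the other places they were -0.96 for Hsph1, -0.59 for Hspa4, -0.49 for Dnajc5, -0.63 for Dnajc6 and -0.76 for Dnajc22. Hspb8 was lost (0.48, adjusted p = 0.0606, with 8.17e-05 to 0.486 over its alternatives). The single dTAG13 library is then assumed to vary like the other groups. The count rests on that shared spread: it was 52 without the second dTAG13 library, 2 without the first DMSO library, 3 without the second, and 0 when the 4 dTAG13 and DMSO libraries alone were fitted. The fall of Pdia4 and Hsph1 passed under 11 of 12 alternatives, all but the last. Scaling also matters: over all genes 483 were higher and 990 lower as deposited, 730 and 704 after quantile normalization, and 709 and 598 after median-ratio scaling, with medians of -0.13, -0.00 and -0.06. The endoplasmic reticulum members kept 8 lower under both scalings, with 1 higher (Dnajb12), 1 mitochondrial member was higher under each, and over all members the split of higher against lower calls was 4 and 13 after quantile normalization and 5 and 10 after median-ratio scaling. Of the mesoderm markers 4 of 6 were in the table, without T and Mesp1, and they summed to 7.94 and 12.5 FPKM with dTAG13 and to 6.72 and 5.14 FPKM with DMSO. The higher sum is Hand1, at 7.94 and 10.7 FPKM with dTAG13 and 4.16 and 2.88 FPKM with DMSO, while Eomes was 0 and 1.47 FPKM with dTAG13 and 2.14 and 1.81 FPKM with DMSO. Mixl1 and Tbx6 were below 1 FPKM in all 4 libraries. Their part in the changes was not tested.

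The second comparison asks how the genes differ between day 6 and day 2, in OE and EV cells. These 2 comparisons share no library. In OE cells 29 members were called, 13 higher and 16 lower at day 6 (all genes, 32.3% called, 17.5% higher and 14.7% lower). In EV cells 25 were called, 8 higher and 17 lower (all genes, 23.7% called, 13.3% higher and 10.5% lower). These are 36.2% and 31.2% of the members. As deposited, more members were called lower than higher in both lines, whereas more of all genes were called higher than lower. Whether the members differ from all genes was not tested, and the counts by place are also given. Lower in both lines were 14 members, which is 87.5% of the 16 in OE cells and 82.4% of the 17 in EV cells; higher in both were 6, 46.2% of 13 and 75% of 8. The level filter admitted some members through day 6 alone: Dnaja4 and Hspa12a in OE cells, and Dnaja4, Hspa12a and Dnajc5g in EV cells, reached 1 FPKM in fewer than 2 day 2 libraries and were tested because of their day 6 levels. The remaining members called higher were 11 in OE cells and 5 in EV cells. Among the 11 is Hspa4l, at 0.252 and 0.481 FPKM in day 2 OE cells and below 1 FPKM in day 2 EV and DMSO cells. Only its dTAG13 libraries (5.27 and 1.12 FPKM) reached 1 FPKM at day 2. Without those libraries it would also have been tested through day 6 levels alone. Dnaja4 and Hspa12a are also among the 6 higher in both lines, an overlap that the filter favoured. The overlaps have no share over all genes beside them. None of the 80 tested members passed the test of a difference between the lines (all genes, 0.232%; 7 members at an unadjusted p below 0.05).

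The mitochondrial chaperonin fell in both lines. Hspe1, its lid, was 515 and 487 FPKM in day 6 OE cells and 1050.1 and 974 FPKM in day 2 OE cells (log2 change -1.01 ± 0.12 (SE), adjusted p = 0.00026). In the EV line Hspe1 was 504 and 544 FPKM at day 6 and 976 and 913 FPKM at day 2 (log2 change -0.85 ± 0.12 (SE), adjusted p = 0.00124). Every day 6 library lay well below every day 2 library, and the 4 day 6 libraries differed little among themselves. Hspd1, its barrel, was 375 and 344 FPKM in day 6 OE cells and 644 and 617 FPKM in day 2 OE cells (log2 change -0.81 ± 0.16 (SE), adjusted p = 0.00465). In EV cells it was 296 and 366 FPKM at day 6 and 573 and 675 FPKM at day 2 (log2 change -0.92 ± 0.16 (SE), adjusted p = 0.00376). The pair shares the promoter with the heat shock elements printed above. Dnajc11, a J-domain protein of the cristae-organizing complex, fell by 1.03 in OE cells and by 0.79 in EV cells on the log2 scale. Hspa9, the mitochondrial Hsp70, did not pass, at -0.03 in OE cells and -0.23 in EV cells. Of the 8 mitochondrial members 3 passed as lower in each line, against 14.7% of all genes in OE cells and 10.5% in EV cells. All 8 were lower at day 6 in both lines as deposited, as were 5401 of 12059 genes in OE cells and 5639 in EV cells. After quantile normalization 5 of 8 were lower in OE cells and 4 of 8 in EV cells.

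Most subunits of TRiC, the chaperonin of the cytosol, fell too. The same 6 subunits of 8, Tcp1, Cct2, Cct3, Cct5, Cct6a and Cct7, passed in both lines. Over all genes 14.7% were called lower in OE cells and 10.5% in EV cells. Cct5 was 820.0 and 752 FPKM in day 6 OE cells and 1344 and 1174 FPKM in day 2 OE cells (log2 change -0.68 ± 0.09 (SE), adjusted p = 0.000606). In the EV line Cct5 was 801 and 873 FPKM at day 6 and 1087 and 1122 FPKM at day 2 (log2 change -0.40 ± 0.09 (SE), adjusted p = 0.0131). The day 6 libraries lie below the day 2 libraries in each line. Cct2 was 231 and 217 FPKM in day 6 OE cells and 347 and 319.8 FPKM in day 2 OE cells (log2 change -0.57 ± 0.09 (SE), adjusted p = 0.0014). In EV cells it was 192 and 212 FPKM at day 6 and 304 and 301 FPKM at day 2 (log2 change -0.58 ± 0.09 (SE), adjusted p = 0.00203). Subunits of one ring need not move alike in RNA: Cct4 was 435 and 410.0 FPKM in day 6 OE cells and 442 and 424 FPKM in day 2 OE cells (log2 change -0.04 ± 0.15 (SE), adjusted p = 0.881). The median over the 8 subunits was -0.54 in OE cells and -0.44 in EV cells, against 0.08 and 0.04 over all genes. After quantile normalization it was -0.22 in OE cells and -0.23 in EV cells, against -0.04 over all genes in each line. All 8 were lower in both lines as deposited, and 7 of 8 after quantile normalization, where Cct4 turned and 4 of 8 passed in each line.

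**Figure D4:**
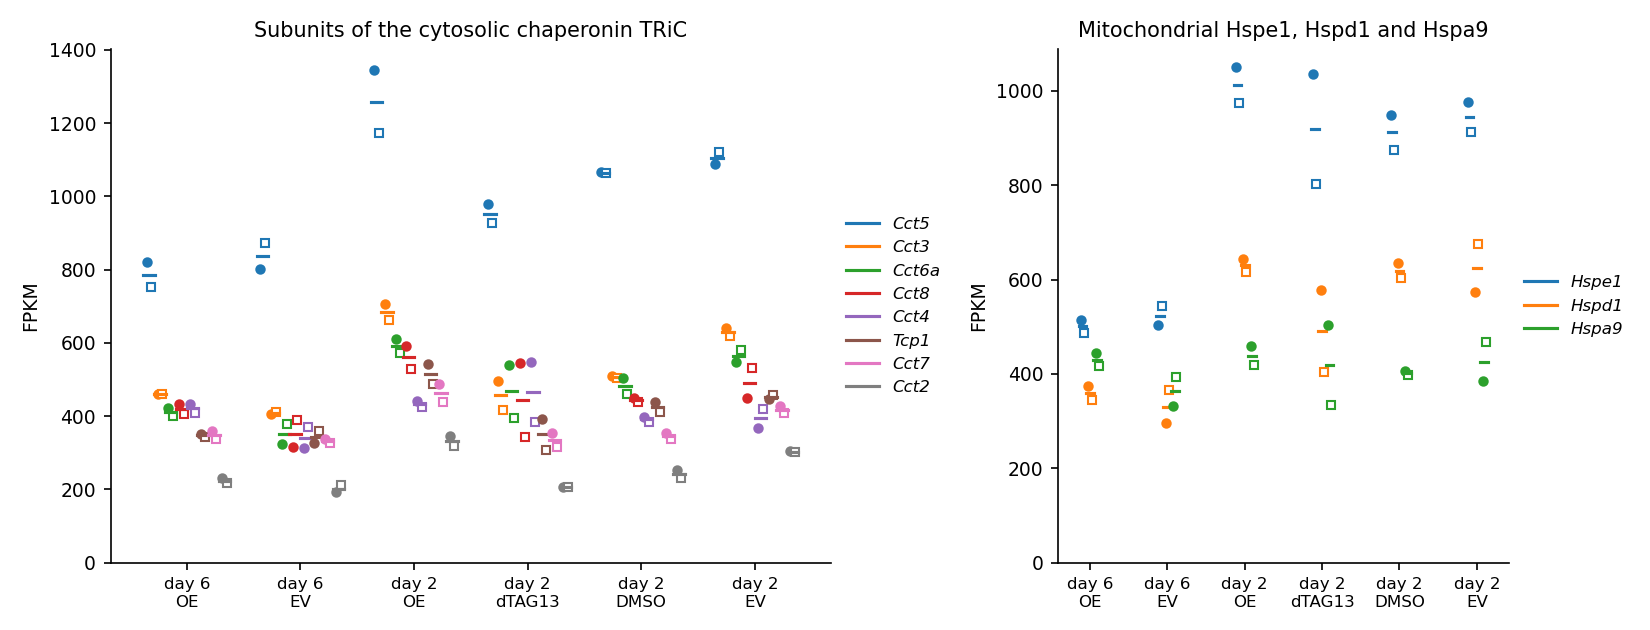
FPKM (vertical axes, from 0) of the 8 TRiC subunits and of mitochondrial Hspe1, Hspd1 and Hspa9 in the 6 groups; filled circles are replicate 1, open squares replicate 2 and short bars the group mean. Cct5 is at 752 to 873 in the day 6 libraries and at 926 to 1344 in the day 2 libraries, and Hspe1 at 487 to 544 and 802 to 1050.1.

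Cytosolic Hsp70 partners were divided. Hsph1 was 50.4 and 46.3 FPKM in day 6 OE cells and 83.6 and 66.6 FPKM in day 2 OE cells (log2 change -0.62 ± 0.13 (SE), adjusted p = 0.00672). In EV cells it was 41.8 and 50 FPKM at day 6 and 91.6 and 96.7 FPKM at day 2 (log2 change -1.03 ± 0.13 (SE), adjusted p = 0.000893). Hspa4 fell as well, by 0.52 in OE cells and 0.39 in EV cells, as did Dnaja1, a farnesylated J-domain partner of Hsp70, by 0.76 and 0.96. Hspbp1 was 78.8 and 68.1 FPKM in day 6 OE cells and 157 and 136 FPKM in day 2 OE cells (log2 change -0.98 ± 0.15 (SE), adjusted p = 0.000982). The testis-rich Hsp70 Hspa2 went the other way. It was 14 and 14.1 FPKM in day 6 OE cells and 4.42 and 4.88 FPKM in day 2 OE cells (log2 change 1.42 ± 0.27 (SE), adjusted p = 0.00366). In the EV line Hspa2 was 12.2 and 8.82 FPKM at day 6 and 5.61 and 4.07 FPKM at day 2 (log2 change 0.97 ± 0.27 (SE), adjusted p = 0.0291). Hspa12a, a distant Hsp70 relative, rose by 1.32 in OE cells and 1.16 in EV cells, and the J-domain protein Dnaja4 by 1.36 and 0.64; both were tested only through day 6 levels, as said above, with less than 1 FPKM in every day 2 OE and EV library, so these rises are a description, and Dnaja4 did not pass in EV cells after quantile normalization (0.19). The widest gain belonged to the J-domain protein Dnajc22, at 17.4 and 16.3 FPKM in day 6 EV cells and 1.65 and 3.18 FPKM in day 2 EV cells (log2 change 2.42 ± 0.44 (SE), adjusted p = 0.00395).

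In the endoplasmic reticulum no member fell between the days, while 6 of 22 rose in OE cells and 3 of 22 in EV cells. These are 27.3% and 13.6% higher, against 17.5% and 13.3% of all genes, so the share in EV cells is at the background; none lower stands against 14.7% and 10.5%. Without the first dTAG13 library Calr fell in EV cells (-0.33). Dnajb9, a J-domain protein that returns Hspa5 to the sensor Ern1, was 14.6 and 15.3 FPKM in day 6 OE cells and 6.08 and 6.03 FPKM in day 2 OE cells (log2 change 1.18 ± 0.22 (SE), adjusted p = 0.00318). In the EV line Dnajb9 was 14.2 and 18 FPKM at day 6 and 6.77 and 9.02 FPKM at day 2 (log2 change 0.95 ± 0.22 (SE), adjusted p = 0.0132). No day 6 library overlapped a day 2 library of its line. Dnajc1, a membrane J-domain protein, rose by 0.91 in OE cells and 0.96 in EV cells. In OE cells Dnajc3 (0.73), Pdia5 (0.72), Pdia6 (0.49) and Canx (0.45) also passed, and in EV cells P4hb (0.55). Pdia5 and Pdia6 were also higher at day 6 in EV cells, without passing. Dnajc3 overlapped there, at 13.1 and 14.2 FPKM at day 6 and 11.8 and 13.3 FPKM at day 2. Canx did too, at 174 and 214 FPKM at day 6 and 175 and 229 FPKM at day 2. Hspa5 did not pass in either line. It was 667 and 611 FPKM in day 6 OE cells and 723 and 667 FPKM in day 2 OE cells (log2 change -0.12 ± 0.17 (SE), adjusted p = 0.623), and its change was -0.11 in EV cells. The median over the 22 was 0.20 in OE cells and 0.23 in EV cells. By place, the cytosolic and nuclear members gave 6 higher and 12 lower of 44 in OE cells (median -0.19) and 4 higher and 13 lower in EV cells (median -0.18). These higher counts include members tested only through day 6 levels. They are Dnaja4 and Hspa12a in both lines, and Dnajc5g in EV cells. Hspa4l, among the 6 in OE cells, reached 1 FPKM at day 2 only with dTAG13.

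**Figure D5:**
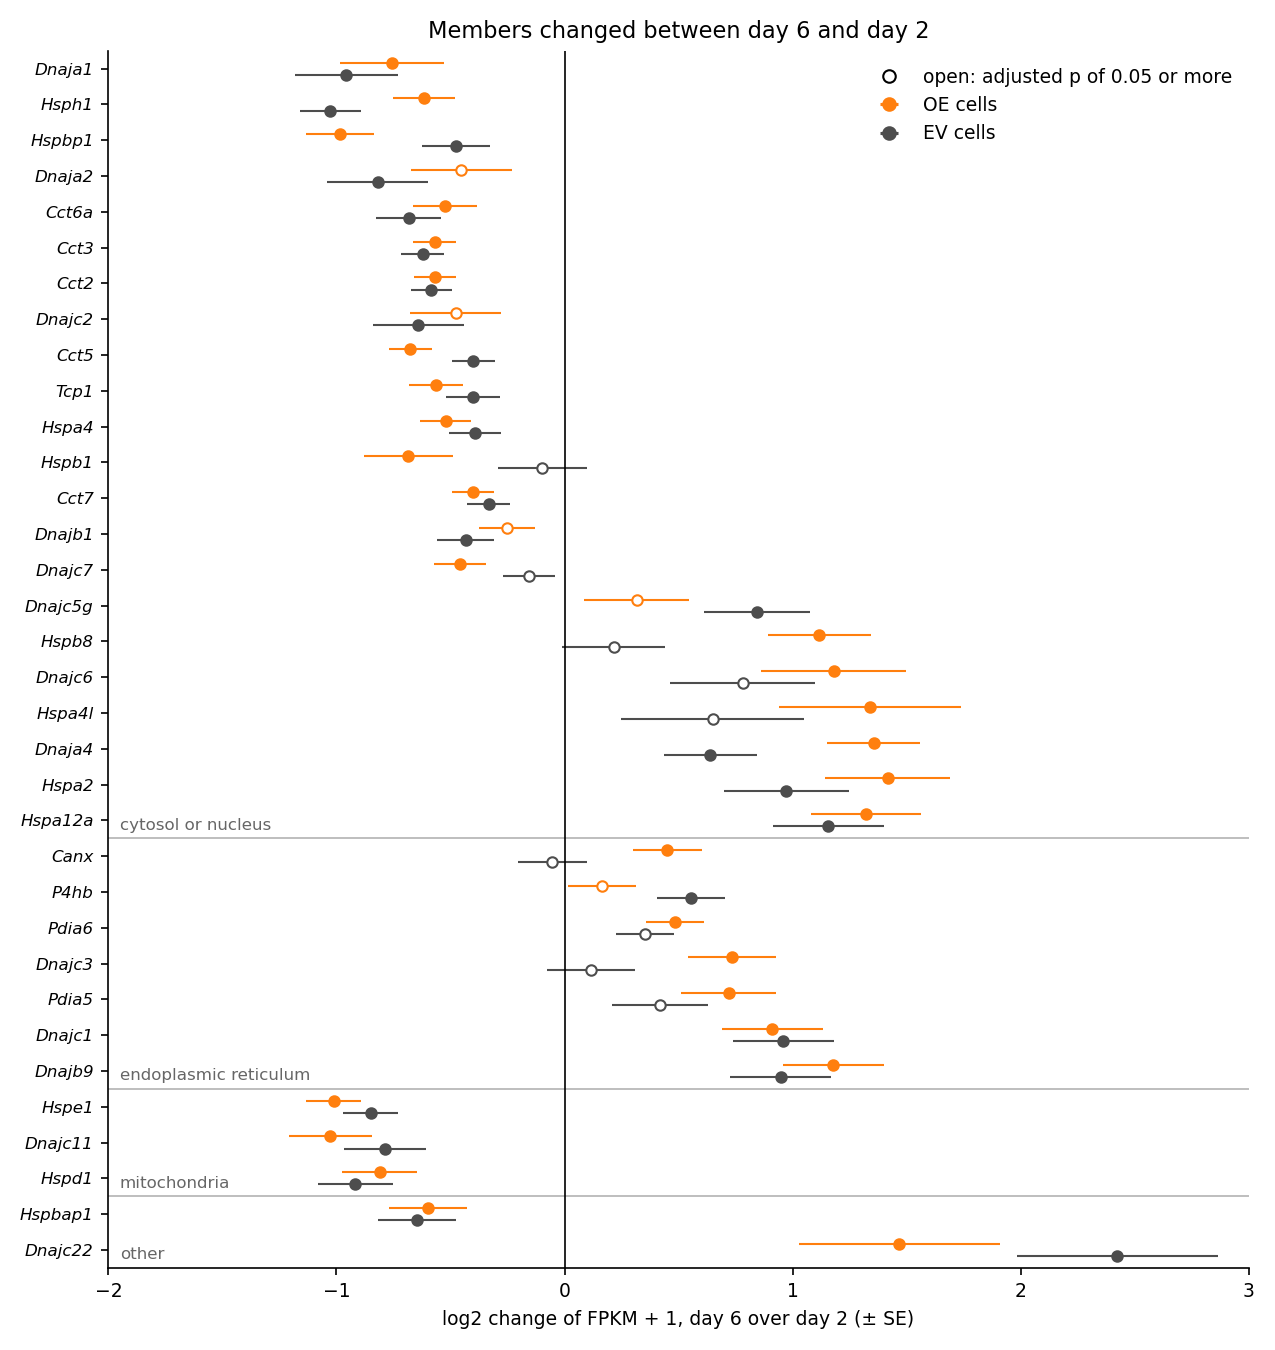
Log2 change of FPKM + 1 between day 6 and day 2 (horizontal axis, bars are ± SE) in OE cells (orange, upper) and EV cells (grey, lower) for every member that passed in either line, grouped by place; open points did not pass in that line. Changes run up to 2.42 for Dnajc22 in EV cells; the endoplasmic reticulum members that passed are all above 0 and the mitochondrial ones all below.

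Each day count also rests on the shared spread. Leaving out any 1 of the 4 libraries compared left 13 to 18 members called in OE cells and 8 or 9 in EV cells, since a lone library then stands for its group. Leaving out the first dTAG13 library, which takes no part in either contrast, gave 46 in each line (all genes, 59.0% and 52.2%). After quantile normalization 15 members were higher and 12 lower in OE cells, and 12 higher and 15 lower in EV cells. Over all genes 2063 were then higher and 2223 lower in OE cells, and 1606 higher and 1755 lower in EV cells. Cct2, Cct3, Hspd1 and Hspe1 passed in both lines under 13 of 13 alternatives. PGCLC markers summed to 1308 to 1320 FPKM in day 6 OE libraries and 1499 to 1604 in day 2 OE libraries. In EV libraries they summed to 1151 to 1157 at day 6 and 1378 to 1382 at day 2. In EV cells Nanos3 was 9.22 and 6.29 FPKM at day 6 and 37.8 and 53.6 FPKM at day 2. Kit was 46.7 and 41.4 FPKM at day 6 and 18.2 and 17.3 FPKM at day 2. Both moved the same way in OE cells. Sums of markers of other cell types differed between the days: neural ectoderm markers summed to 14.5 to 16.1 FPKM in day 6 OE libraries and 6.59 to 6.67 in day 2 OE libraries, and to 18.5 to 18.9 in day 6 EV libraries and 6.68 to 7.47 in day 2 EV libraries. Most of that sum is Otx2, at 11.7 and 10 FPKM in day 6 OE cells and 2.51 and 2.57 FPKM in day 2 OE cells, whereas Pax6 was 0.796 and 0.691 FPKM in day 6 OE cells and 2.15 and 1.91 FPKM in day 2 OE cells; Sox1, Neurog2 and Zic1 were not in the table. Endoderm markers summed to 4.68 to 6.39 FPKM in day 6 OE libraries and 0.761 to 1.23 in day 2 OE libraries, and to 4.19 to 4.69 in day 6 EV libraries and 1.07 to 1.08 in day 2 EV libraries; 4 of the 6, Sox17, Foxa2, Sox7 and Afp, were not in the table. Mesoderm markers summed to 6.32 to 6.54 FPKM in day 6 OE libraries and 2.78 to 3.44 in day 2 OE libraries, and to 5.98 to 6.6 in day 6 EV libraries and 2.58 to 2.74 in day 2 EV libraries. The part of these and of the PGCLC markers in the changes was not tested.

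The third comparison asks what OE does to these genes. At day 2 limma called none of the 80 members (all genes, 0.846%; 7 members at an unadjusted p below 0.05). Of the members that fell with dTAG13, Hspa5 was 723 and 667 FPKM in day 2 OE cells and 737 and 836 FPKM in day 2 EV cells (log2 change -0.18 ± 0.17 (SE), adjusted p = 0.8). Dnajc3 was 7.89 and 7.76 FPKM in day 2 OE cells and 11.8 and 13.3 FPKM in day 2 EV cells. Hsph1 also lay lower in OE cells without overlap. Hyou1, Pdia4, Hspa4, Dnajc5 and Dnajc22 lay higher in OE cells without overlap, and the others overlapped. Hspb8, which rose with dTAG13, lay lower in OE cells. At day 6 1 member was called, lower in OE cells (all genes, 3.72% called, 1.79% lower; 7 members at an unadjusted p below 0.05). Hspb1, the small heat shock protein with the second highest mean, was 473 and 443 FPKM in day 6 OE cells and 823 and 831 FPKM in day 6 EV cells (log2 change -0.85 ± 0.19 (SE), adjusted p = 0.0421). At day 2 it was 760.3 and 714 FPKM in OE cells and 1003 and 779 FPKM in EV cells (log2 change -0.26 ± 0.19 (SE), adjusted p = 0.703). The OE effect did not pass as different between the days (log2 change -0.59 ± 0.27 (SE), adjusted p = 0.486). The day 6 call was lost without any 1 of the 4 day 6 libraries, and under 4 other settings, with log2 changes between -0.92 and -0.80 throughout. Hsp90aa1 was 559 and 551 FPKM in day 6 OE cells and 353 and 414 FPKM in day 6 EV cells, apart but not past the test (log2 change 0.54 ± 0.18 (SE), adjusted p = 0.135). Without the first dTAG13 library 7 members were called at day 2, 12 at day 6 and 7 for the difference between the days (all genes, 14.1%, 25.4% and 11.1%).

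The DMSO and EV cells of day 2, set against each other as controls, gave no member called by limma (all genes, 0.39%; 10 members at an unadjusted p below 0.05, and 12 called without the first dTAG13 library, with 8.1% of all genes). The widest gap among stress genes was in Hspa1b, at 2.38 and 2.04 FPKM with DMSO and 9.9 and 12.1 FPKM in EV cells (log2 change -1.90 ± 0.41 (SE), adjusted p = 0.129). Its values were 4.64 and 4.16 FPKM in day 2 OE cells and 5.42 and 1.11 FPKM with dTAG13, so day 2 EV cells held its 2 highest values. The comparisons of DMSO with EV, of OE with EV at day 2 and of day 6 with day 2 in EV cells all share those EV libraries.

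Genes that work beside the members were read from lists of 26 cytosolic co-chaperones and prefoldin subunits, 30 endoplasmic reticulum folding and unfolded protein response genes, 14 mitochondrial folding genes and proteases, and 2 tested heat shock factors. With dTAG13, 8 of the 30 endoplasmic reticulum genes fell and 1 rose, 26.7% and 3.33%, against 8.21% lower and 4.01% higher of all genes. Sdf2l1, a cofactor of Hspa5, was 26.9 and 43.1 FPKM with dTAG13 and 79.6 and 71.1 FPKM with DMSO (log2 change -1.12 ± 0.18 (SE), adjusted p = 0.00579). Derl3, of the machinery that removes misfolded proteins, was 6.77 and 6.2 FPKM with dTAG13 and 14.7 and 15.7 FPKM with DMSO (log2 change -1.12 ± 0.17 (SE), adjusted p = 0.00382). Xbp1, the transcription factor of the Ern1 branch, fell by 0.66, at 42.6 and 38.9 FPKM with dTAG13 and 65.1 and 64.7 FPKM with DMSO. The one gene that rose was Ddit3, a stress-induced transcription factor also called CHOP, at 26 and 28.3 FPKM with dTAG13 and 6.81 and 7 FPKM with DMSO (log2 change 1.83 ± 0.15 (SE), adjusted p = 0.000244). The other lists lay close to those shares, with 3 lower of 26 (Bag6, Fkbp5 and Ahsa1; 11.5%), 1 lower of 14 (Afg3l2; 7.14%) and none of the 2 heat shock factors. Without the first dTAG13 library the changes were 1.89 for Ddit3, -0.79 for Sdf2l1, -1.17 for Derl3 and -0.72 for Xbp1. More genes on each of the 4 lists then passed as lower, as did more of all genes. Those calls rest on 1 dTAG13 library.

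Between the days, 13 of the 30 endoplasmic reticulum genes rose and 3 fell in OE cells, and 8 rose and 2 fell in EV cells. The shares higher were 43.3% and 26.7%, against 17.5% and 13.3% of all genes, and the shares lower 10% and 6.67%, against 14.7% and 10.5%. Ero1l, the oxidase that recharges the disulfide isomerases, was 90 and 95.3 FPKM in day 6 OE cells and 14.6 and 17.9 FPKM in day 2 OE cells (log2 change 2.45 ± 0.23 (SE), adjusted p = 8.21e-05). In EV cells it was 73.1 and 82.2 FPKM at day 6 and 18.4 and 24.4 FPKM at day 2 (log2 change 1.82 ± 0.23 (SE), adjusted p = 0.000783). Ddit3 rose by 1.98 and 1.80 in OE and EV cells, and Sil1, an exchange factor for Hspa5, by 1.72 and 0.95. Of the 26 cytosolic co-chaperones and prefoldin subunits, 9 fell in each line (34.6%, against 14.7% of all genes in OE cells and 10.5% in EV cells), and 2 rose in OE cells and none in EV cells. Pfdn6, a subunit of prefoldin, which hands nascent actin and tubulin to TRiC, was 173 and 142 FPKM in day 6 OE cells and 339.8 and 285 FPKM in day 2 OE cells (log2 change -0.99 ± 0.12 (SE), adjusted p = 0.000259). The prefoldin subunit Vbp1 rose by 0.85 in OE cells, and the Hsp90 cofactor Ahsa1 fell by 0.71 in OE cells and 0.78 in EV cells. Of the 14 mitochondrial genes 4 fell and 1 rose in OE cells, and 3 fell and 1 rose in EV cells; so few genes make shares of 28.6% and 21.4% lower imprecise. Clpp, a matrix protease, fell by 1.03 in OE cells and 0.62 in EV cells, and the Hsp90 of mitochondria, Trap1, by 0.39 and 0.59.

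OE gave few calls on these lists. Derl3 fell at day 2 (log2 change -1.43 ± 0.17 (SE), adjusted p = 0.00678), at 8.31 and 7.3 FPKM in OE cells and 23.5 and 21.9 FPKM in EV cells. Eif2ak3, the stress kinase PERK, rose at day 6 (log2 change 1.31 ± 0.28 (SE), adjusted p = 0.0343), at 6.4 and 8.79 FPKM in OE cells and 2.85 and 2.08 FPKM in EV cells. Derl3 lay well below EV in every day 2 OE library and Eif2ak3 above it in every day 6 OE library, without overlap.

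Across comparisons that share no library, the dTAG13 and day values of a member can be set side by side. Hsph1 and Hspa4 passed as lower with dTAG13 and as lower at day 6 in both lines. Pdia6 and Dnajc3 passed as lower with dTAG13 and as higher at day 6 in OE cells, as did Dnajc6 and Dnajc22, the last also in EV cells. Pdia6 had -0.70 with dTAG13 and 0.49 at day 6 in OE cells, and Dnajc3 -0.70 and 0.73. Neither passed in EV cells. For Dnajc3 the day 6 levels were 13.5 and 13.8 FPKM in OE cells and 13.1 and 14.2 FPKM in EV cells. Its day 2 levels were 7.89 and 7.76 FPKM in OE cells and 11.8 and 13.3 FPKM in EV cells. Hspa5, Hsp90b1, Hyou1, Calr, Pdia3 and Pdia4 passed with dTAG13 and at neither day comparison. The chaperonin genes were the reverse: 6 TRiC subunits with Hspd1 and Hspe1 passed at both day comparisons and not with dTAG13 (Tcp1 and Hspd1 did so without the first dTAG13 library). A pass in one comparison and not in another is not a test of the difference between them.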

How the data were processed

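RNA of 12 libraries of sorted mouse PGCLCs was measured by poly(A) RNA-seq. Per the submitters' processing notes, the tools were FastQC 0.10.1, Trim Galore 0.6.3, cutadapt (version not given in the sources used here), STAR 2.7.6a and Cufflinks 2.2.1, with mm10. The authors' deposited table gives FPKM values per gene with 1 added to each, which was subtracted. Depth and strandedness are not given in the sources used here, so the precision of low values is unknown and no count model was possible. Positions came from GENCODE M21 by symbol. Cct6a, Cct7, Cct8, Tcp1, Dnaja1, Dnajc1, Pdia3, Pdia6, Hspd1, Hspe1, Dnaja4, Dnajc5g, Dnajc7, Hspa12a and Hspb2, among others, overlap another gene on the other strand. Dnajc25, Dnaja3, Dnajc14 and Hspa14 overlap another gene on their own strand. Reads of such pairs may not be told apart.

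Genes with FPKM of 1 or more in at least 2 libraries (12059) entered limma (3.58.1, R 4.3.3) as log2(FPKM + 1), a scale that understates changes of low genes. One model held 6 group means (6 residual and 3.86 prior degrees of freedom), with a trended prior variance and Benjamini-Hochberg adjustment over all genes tested; an adjusted p below 0.05 counted as a change. Errors of log2 changes are standard errors. The procedure was tested on simulated data. Members, lists and alternatives were chosen with earlier results of these data known; places came from textbook knowledge. Named genes were Tex10, up to 8 changed members per direction and comparison, a list of well-known chaperones, the members with the highest levels or widest ranges, and up to 3 changed genes per other list; further changed genes, among them Hspa4, Dnaja1 and Pdia5 between days and Xbp1, Ahsa1, Vbp1 and Trap1, were picked after their values were seen. Alternatives covered the pseudocount, filter, scaling, replicate number, prior trend, groups fitted and libraries left out. Python 3.11.15, pandas 2.3.3, numpy 2.4.6 and matplotlib 3.10.9 were used.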

Additional observations from a re-analysis of the deposited data

How the results depend on the processing

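Counts of members called stayed within 1.5 times the reported value under most settings, with these exceptions. When only the groups compared were fitted, counts were 5 for OE at day 2, 14 for OE at day 6, 6 for the difference of OE effects, 0 for dTAG13, 40 for day 6 in EV cells, 46 for day 6 in OE cells and 2 for DMSO against EV. Without D2_dTAG replicate 1 they were 7, 12, 7, 27, 46, 46 and 12. For OE at day 6, where 1 member was called, a pseudocount of 0.1, median-ratio scaling, the replicate block and no trend each gave 0, and quantile normalization gave 3. Leaving out 1 library of the groups compared gave 0 for OE at day 6, 2 to 52 for dTAG13, 8 to 9 for day 6 in EV cells and 13 to 18 for day 6 in OE cells; the lone library left is assumed to vary like the other groups. The cause was not tested beyond that smaller number of libraries. Sign changes with a call that was absent before arose for 7 members with dTAG13: without D2_dTAG replicate 1, Dnajc21, Dnajc25 and Hspa1b became lower and Hspb2 higher (1.24), and without D2_dTAG replicate 2, Dnaja2 and Dnajb11 became higher and Dnajb5 lower. Same-numbered libraries share only a number (correlations of their deviations between -0.116 and 0.133), and with the replicate block 12 members were called for dTAG13, 22 for day 6 in EV cells, 28 in OE cells and 0 in the other comparisons. With dTAG13, Dnajc3, Dnajc6 and Pdia3 were lost under the block. Unknown depth limits the low members, such as Dnaja4 and Hspa12a.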
